A study of Mus musculus with 10 samples.

Results

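The expression of 9 genes of the megakaryocyte and platelet lineage, Pf4, Ppbp, Itga2b, Itgb3, Gp1ba, Gp9, Gp6, Treml1 and Vwf, was compared between the spleens of arthritic DUSP6 KO and WT mice. The genes were chosen by name, as products known from megakaryocytes and platelets, with earlier results of these data known. They are 9 of the 54532 genes in the deposited table. All 9 were also among the 21296 genes that passed the filter (mean of 0.1 FPKM or more) and were tested.

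Megakaryocytes are the large cells that shed platelets into the blood, and they make the RNA, the granule proteins and the surface receptors that platelets carry. In the mouse they reside in the red pulp of the spleen as well as in the bone marrow, and the spleen also holds a pool of circulating platelets. Platelets bind exposed collagen and von Willebrand factor through surface glycoproteins, aggregate through an integrin that binds fibrinogen, and release chemokines from their alpha granules.

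All 10 mice received arthritogenic serum from arthritic offspring of KRN and NOD mice (100 µL intraperitoneally on days 0 and 2), which transfers KRN serum-induced arthritis (KSIA), and spleens were taken on day 9. The 5 DUSP6 KO mice carried the Dusp6tm1Jmol allele, which removes a phosphatase of ERK kinases in every cell, the 5 WT controls were C57BL/6J, and mice of 8 to 12 weeks were used. Knockdown is the labels' word for the mutant genotype, and KO the paper's, which is used here. RNA from 1 spleen per mouse gave 1 library, and mice are named by the animal number of the label.

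The libraries held 14990474 to 19822673 reads, with medians of 17298955 in DUSP6 KO and 16201982 in WT. Dusp6 was at 0.308 to 0.624 FPKM (fragment counts scaled to gene length and library depth) in DUSP6 KO and at 16.6 to 24.0 FPKM in WT. The labels give both sexes for the study, whereas in every library Ddx3y of the Y chromosome reached at least 14.4 FPKM and Xist did not exceed 0.0206 FPKM. Haemoglobin genes took 1.74% to 7.56% of the reads in DUSP6 KO, with the highest share in DUSP6 KO 73, and 1.94% to 3.97% in WT. The 8 spleen lymphocyte markers measured summed to 456 to 921 FPKM over the DUSP6 KO libraries and to 538 to 1111 FPKM over the WT libraries.

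The promoters of 4 of the genes are shown first, and they set side by side the neighbouring chemokine genes and a pair of receptor subunits. Whether these sequences relate to the levels measured below was not tested. Each sequence is the 250 bases before the gene's start in RefSeq on GRCm38.p6, given 5′ to 3′ in the direction of the gene. They are at chr5:90772185-90772434 for Pf4, chr5:90768268-90768517 for Ppbp, chr11:70638872-70639121 for Gp1ba and chr6:87777820-87778069 for Gp9, all on the plus strand, and none overlaps an exon in the GENCODE annotation. Capitals mark matches, on either strand, to AGATAA or TGATAA (the letters bound by GATA factors), to AGGAAG (ETS factors) and to TGTGGT (RUNX factors).
Pf4: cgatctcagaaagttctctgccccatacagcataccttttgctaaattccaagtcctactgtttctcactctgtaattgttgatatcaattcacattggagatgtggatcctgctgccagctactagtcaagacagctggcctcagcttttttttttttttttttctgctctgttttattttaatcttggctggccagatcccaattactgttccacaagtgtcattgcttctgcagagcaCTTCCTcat
Ppbp: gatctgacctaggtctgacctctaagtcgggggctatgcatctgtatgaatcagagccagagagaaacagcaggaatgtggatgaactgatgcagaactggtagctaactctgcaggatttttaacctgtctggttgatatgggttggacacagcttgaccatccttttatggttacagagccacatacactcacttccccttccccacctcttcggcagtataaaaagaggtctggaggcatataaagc
Gp1ba: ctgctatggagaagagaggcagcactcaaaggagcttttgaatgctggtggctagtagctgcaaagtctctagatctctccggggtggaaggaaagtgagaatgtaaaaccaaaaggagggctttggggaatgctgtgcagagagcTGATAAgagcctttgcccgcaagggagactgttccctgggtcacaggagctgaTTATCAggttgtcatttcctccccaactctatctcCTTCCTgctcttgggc
Gp9: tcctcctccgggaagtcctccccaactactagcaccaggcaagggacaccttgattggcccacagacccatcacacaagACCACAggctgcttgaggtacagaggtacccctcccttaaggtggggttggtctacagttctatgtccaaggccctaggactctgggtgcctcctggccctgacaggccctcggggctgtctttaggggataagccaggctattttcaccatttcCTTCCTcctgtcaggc

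Of the 9 genes, 7 were matched to a RefSeq promoter, and Itgb3 and Vwf were not. The ETS letters were in 4 of these 7 windows, those of Pf4, Itga2b, Gp1ba and Gp9, and in 29.5% of 32851 mouse promoters of the same length. The Itga2b window lies largely within an exon of an Itga2b transcript in GENCODE that starts farther upstream, so it is in part transcribed sequence. The match ended 4 bases before the start in Pf4 and 11 bases before it in both Gp1ba and Gp9. The GATA letters were in 2 of 7 windows, at 2 places in that of Gp1ba and at 1 in that of Gp6, against 16.6% of all promoters. Gp1ba was the 1 gene of 7 with both GATA and ETS letters, which 4.72% of all promoters hold. The RUNX letters were in the Gp9 window alone, against 14.0% of all promoters. The Ppbp and Treml1 windows held none of these letters, which says nothing about the factors elsewhere at these genes.

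Pf4 (platelet factor 4) and Ppbp (pro-platelet basic protein) encode chemokines stored in alpha granules, and were the most abundant of the 9 transcripts per length. They are neighbours on chromosome 5 of GRCm38, with Ppbp at chr5:90768518-90770063 and Pf4 at chr5:90772435-90773383, both on the plus strand and 2371 bases apart. Pf4 was at 63.0, 91.3, 72.4, 62.2 and 66.97 FPKM in DUSP6 KO 26, 21, 73, 01 and 03, and at 93.2, 66.3, 102, 143 and 117 FPKM in WT 65, 67, 73, 77 and 83. The groups overlapped, because WT 67 lay among the DUSP6 KO spleens and DUSP6 KO 21 lay near the lower WT spleens. The mean was 71.2 FPKM over the 5 DUSP6 KO spleens (SD 11.96) and 104 FPKM over the 5 WT spleens (SD 28.6). On the log2(FPKM + 0.1) scale this was a difference of -0.52 (SE 0.19, 95% interval -0.94 to -0.10), with p = 0.0397 in a two-sided exact permutation test and an adjusted p of 0.767 in limma over all genes tested. The smallest p that 5 against 5 mice can give in the exact test is 0.0079. In bulk spleen RNA, fewer megakaryocytes or platelets and less RNA per cell cannot be told apart.

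Ppbp ranked the spleens much as Pf4 did, at a higher level. It was at 118, 174, 128, 131 and 129 FPKM in DUSP6 KO 26, 21, 73, 01 and 03, and at 147, 108, 180, 271 and 219 FPKM in WT 65, 67, 73, 77 and 83. DUSP6 KO 21 stood above the other 4 DUSP6 KO spleens, and WT 67 was the lowest of all 10. The means were 136 ± 21.7 FPKM for DUSP6 KO and 185 ± 63.2 FPKM for WT (SD, n = 5 per group), with a log2 difference of -0.39 (SE 0.22, 95% interval -0.88 to 0.11), an exact permutation p of 0.167 and a limma adjusted p of 0.944. The ratio of Ppbp to Pf4 FPKM was between 1.58 (WT 65) and 2.11 (DUSP6 KO 01). Its mean was 1.92 ± 0.12 in DUSP6 KO and 1.75 ± 0.14 in WT (SD, n = 5 per group), a difference that did not pass a two-sided exact permutation test (p = 0.063).

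Vwf encodes von Willebrand factor, the adhesive protein that bridges platelets to the vessel wall, and is made by endothelial cells as well as by megakaryocytes. It lies at chr6:125546774-125686679 on the plus strand and has the longest transcript of the 9, with 16064 exonic bases in 56 exon blocks. Vwf was at 2.38, 2.97, 3.61, 2.61 and 2.81 FPKM in DUSP6 KO 26, 21, 73, 01 and 03, and at 3.08, 2.46, 3.40, 4.65 and 2.92 FPKM in WT 65, 67, 73, 77 and 83. WT 77 was again the highest, and DUSP6 KO 73 was the highest of its group and above 4 of the 5 WT spleens. The means of 2.87 ± 0.466 FPKM for DUSP6 KO and 3.30 ± 0.827 FPKM for WT (SD, n = 5 per group) differed by -0.18 on the log2 scale (SE 0.17, 95% interval -0.56 to 0.21), with an exact permutation p of 0.365. Of 14 endothelial marker genes, such as Pecam1 and Cdh5, 11 were higher and 3 lower in DUSP6 KO (median log2 difference 0.12), and their summed level was 246 to 350 FPKM in the DUSP6 KO spleens and 228 to 322 FPKM in the WT spleens. The share of Vwf that came from endothelial cells was not tested.

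**Figure D1:**
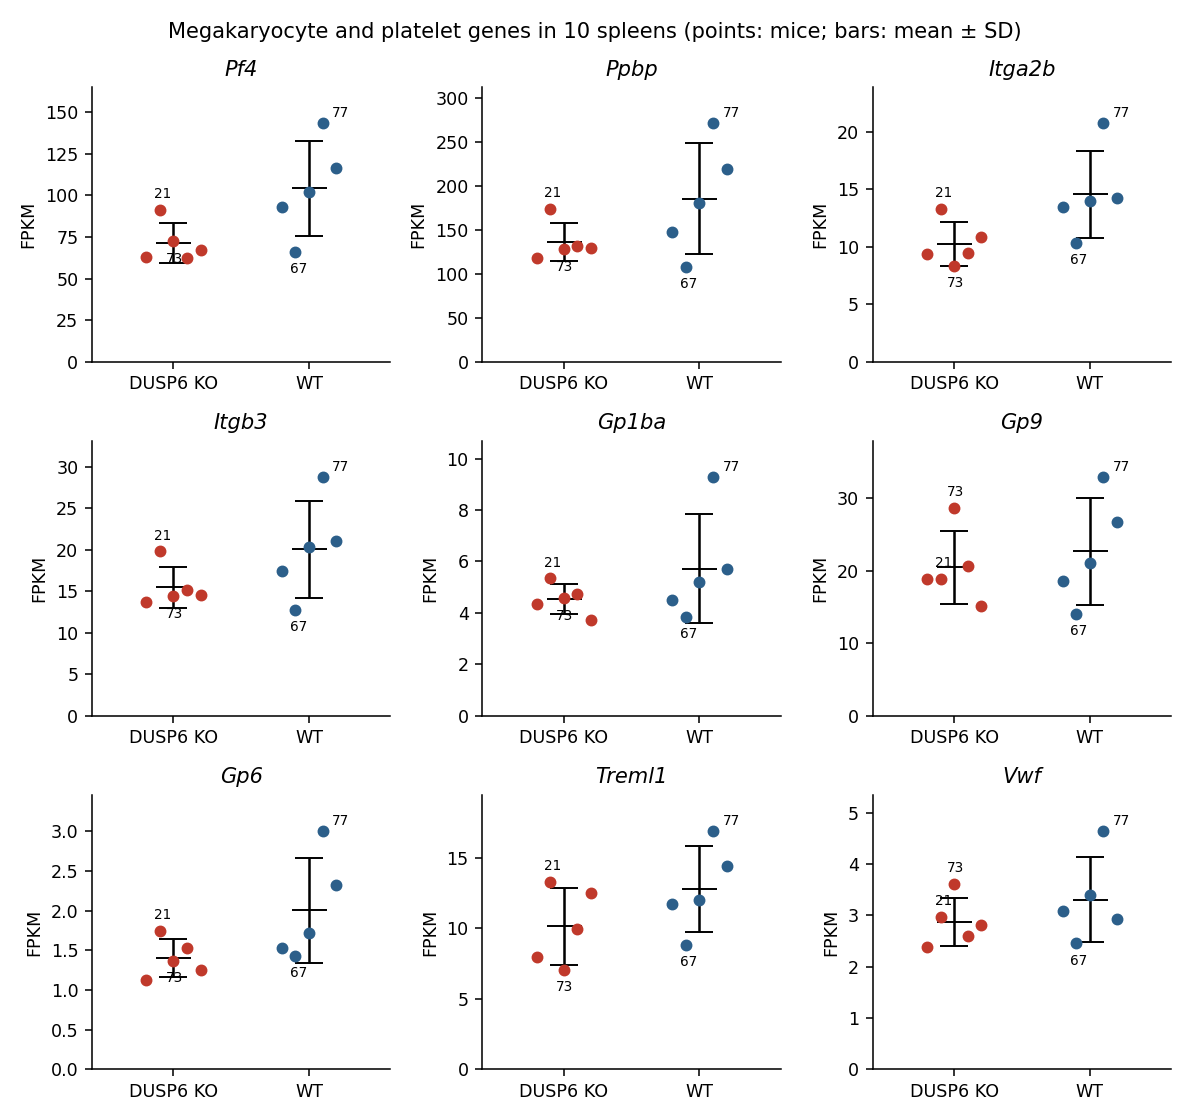
FPKM of each of the 9 genes (vertical axes, from 0) in the 5 DUSP6 KO (red) and 5 WT (blue) spleens, each point a mouse and each bar the mean ± SD, with animals 21, 73, 67 and 77 numbered. WT 77 is the highest spleen in every panel, the groups overlap in every panel, and DUSP6 KO 73 leads its group in the Gp9 and Vwf panels.

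Itga2b and Itgb3 encode the alpha IIb and beta 3 subunits of the platelet fibrinogen receptor. The alpha IIb subunit is found mainly on the megakaryocyte lineage and early progenitors, whereas beta 3 also pairs with the alpha V subunit in other cells. Both genes are on chromosome 11, Itga2b at chr11:102453297-102470122 on the minus strand and Itgb3 at chr11:104608000-104670476 on the plus strand, 2.14 Mb apart. Itga2b was at 9.34, 13.3, 8.33, 9.41 and 10.8 FPKM in DUSP6 KO 26, 21, 73, 01 and 03, and at 13.4, 10.4, 13.9, 20.7 and 14.3 FPKM in WT 65, 67, 73, 77 and 83. Only DUSP6 KO 21 and 03 reached into the WT range, whose lower end was WT 67. The means were 10.2 ± 1.91 FPKM for DUSP6 KO and 14.5 ± 3.79 FPKM for WT (SD, n = 5 per group), a log2 difference of -0.49 (SE 0.18, 95% interval -0.88 to -0.09) with an exact permutation p of 0.0317 and a limma adjusted p of 0.770.

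Itgb3 was at 13.7, 19.8, 14.4, 15.1 and 14.5 FPKM in DUSP6 KO 26, 21, 73, 01 and 03, and at 17.4, 12.8, 20.3, 28.8 and 21.03 FPKM in WT 65, 67, 73, 77 and 83. Its order over the 10 spleens was exactly that of Ppbp. The means were 15.5 ± 2.46 FPKM and 20.04 ± 5.86 FPKM (SD, n = 5 per group), with a log2 difference of -0.33 (SE 0.19, 95% interval -0.76 to 0.09) and an exact permutation p of 0.151. Itgb3 exceeded Itga2b per length in every spleen, by 1.23 (WT 67) to 1.73 times (DUSP6 KO 73). The ratio was 1.52 ± 0.15 in DUSP6 KO and 1.37 ± 0.10 in WT (SD, n = 5 per group, exact permutation p = 0.095).

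Gp1ba and Gp9 encode subunits of the glycoprotein Ib-IX-V complex, the platelet receptor for von Willebrand factor. Gp1ba is at chr11:70639122-70642036 and Gp9 at chr6:87778072-87779768, both on the plus strand, and each has 2 exon blocks. Gp1ba was at 4.34, 5.34, 4.57, 4.74 and 3.70 FPKM in DUSP6 KO 26, 21, 73, 01 and 03, and at 4.50, 3.85, 5.21, 9.29 and 5.71 FPKM in WT 65, 67, 73, 77 and 83. Apart from WT 77, the groups covered nearly the same range. The means were 4.54 ± 0.595 FPKM for DUSP6 KO and 5.71 ± 2.12 FPKM for WT (SD, n = 5 per group), a log2 difference of -0.27 (SE 0.21, 95% interval -0.73 to 0.19) with an exact permutation p of 0.294.

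Gp9 was at 18.9, 18.9, 28.7, 20.6 and 15.2 FPKM in DUSP6 KO 26, 21, 73, 01 and 03, and at 18.6, 14.0, 21.1, 33.0 and 26.8 FPKM in WT 65, 67, 73, 77 and 83. DUSP6 KO 73 was the highest of its group and the second highest of all, whereas it was at the low or middle end for Pf4, Ppbp, Itga2b and Treml1. Gp9 had the smallest difference of the 9, with means of 20.5 ± 5.001 FPKM and 22.7 ± 7.37 FPKM (SD, n = 5 per group) and a log2 difference of -0.12 (SE 0.23, 95% interval -0.63 to 0.39, exact permutation p = 0.659). The ratio of Gp9 to Gp1ba FPKM was 3.53 to 4.69 in 9 spleens and 6.27 in DUSP6 KO 73. Gp9 and Gp1ba had 222 to 483 and 167 to 420 reads per library, against 2029 to 4882 for Ppbp, and the SEs of all 9 differences were nonetheless alike (0.17 to 0.23 on the log2 scale).

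Gp6 encodes glycoprotein VI, the collagen receptor of platelets, and Treml1 encodes TLT-1, a receptor held in alpha granules that reaches the surface on activation. Gp6 (chr7:4363965-4397744, minus strand) had the lowest level of the 9. It was at 1.13, 1.74, 1.36, 1.53 and 1.26 FPKM in DUSP6 KO 26, 21, 73, 01 and 03, and at 1.53, 1.43, 1.72, 3.01 and 2.33 FPKM in WT 65, 67, 73, 77 and 83. WT 77 and 83 lay above all DUSP6 KO spleens, and the other 3 WT spleens lay within the DUSP6 KO range. The means of 1.40 ± 0.240 FPKM and 2.00 ± 0.661 FPKM (SD, n = 5 per group) differed by -0.44 on the log2 scale (SE 0.21, 95% interval -0.92 to 0.03, exact permutation p = 0.0794).

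Treml1 (chr17:48359916-48367176, plus strand) was at 7.95, 13.3, 7.06, 9.94 and 12.5 FPKM in DUSP6 KO 26, 21, 73, 01 and 03, and at 11.8, 8.85, 12.03, 16.9 and 14.4 FPKM in WT 65, 67, 73, 77 and 83. Here DUSP6 KO 73 was the lowest of all 10 spleens, the reverse of its place for Gp9. The means were 10.2 ± 2.74 FPKM for DUSP6 KO and 12.8 ± 3.05 FPKM for WT (SD, n = 5 per group), with a log2 difference of -0.34 (SE 0.21, 95% interval -0.81 to 0.13) and an exact permutation p of 0.183.

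Across the 9 genes, the mean log2 level was lower in DUSP6 KO for 9 of 9, where 51% of all genes tested had a difference below 0. The median difference of the 9 was -0.34, against -0.0046 over all genes tested, and 13.9% of those genes had a lower value than this median. No gene of the 9 passed limma's adjusted threshold of 0.05, which 0.0704% of the genes tested did, and the lowest adjusted p was 0.767 (Pf4). At an unadjusted p under 0.05 there were 2 of 9, Pf4 and Itga2b, against 3.03% of all genes tested in this direction and 5.66% in either. Fitted with limma voom on the recovered reads, the counts were also 0 and 2. The 5 DUSP6 KO values lay wholly below the 5 WT values for 0 of 9 genes, against 0.563% of all genes tested. In level per length, averaged over the 10 spleens, the order was Ppbp (160.6 FPKM), Pf4, Gp9, Itgb3, Itga2b, Treml1, Gp1ba, Vwf and Gp6. Ppbp exceeded Pf4, and Pf4 exceeded Gp9, in 10 of 10 spleens, and so did Treml1 over Gp1ba, Gp1ba over Vwf and Vwf over Gp6. The neighbours Gp9 and Itgb3 were less separated, with Gp9 the higher in 9 of 10 spleens, and Itga2b was the higher of Itga2b and Treml1 in 6 of 10, so that this last pair could not be ranked. The genes share their spleens and are measured on the same cells, so 9 lower means are not 9 independent observations. They were also chosen with earlier results of these data known, so the shares above are descriptions.

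**Figure D2:**
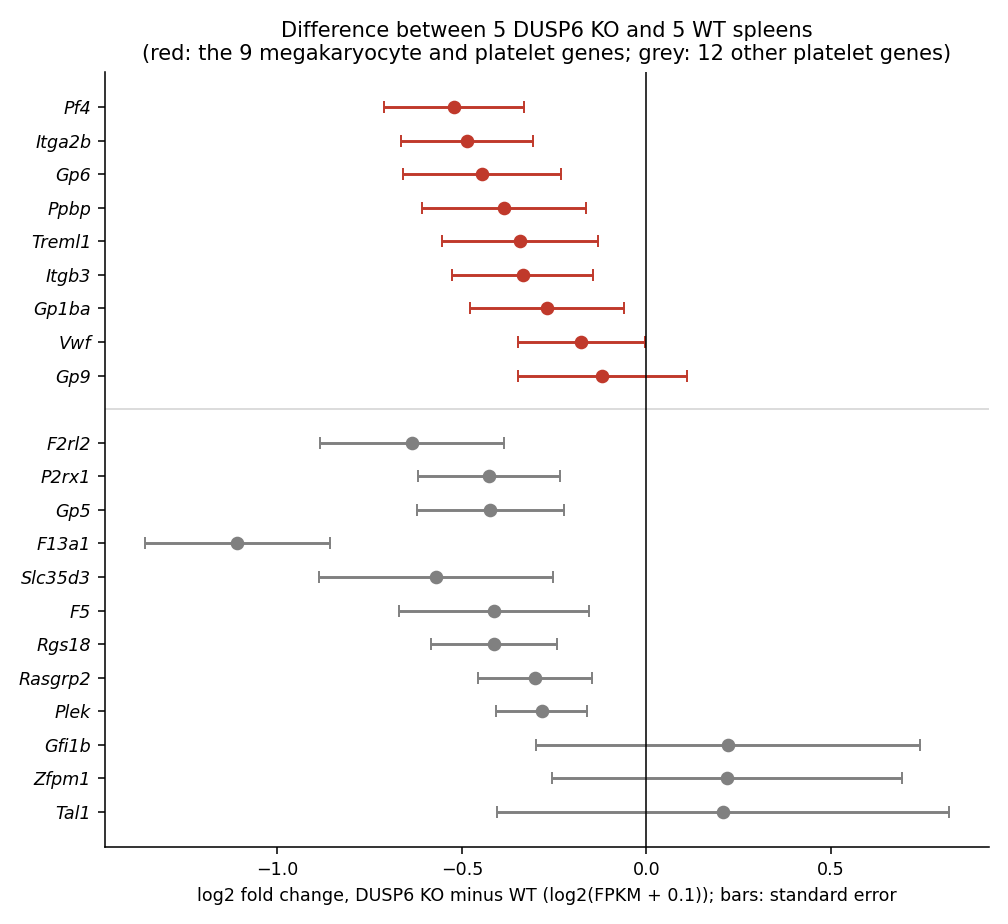
Difference in log2(FPKM + 0.1) between 5 DUSP6 KO and 5 WT spleens (horizontal axis, below 0 where DUSP6 KO was lower), as points with bars of 1 standard error, for the 9 genes (red) and for 12 genes named from 4 further platelet and megakaryocyte lists (grey). The 9 genes lie between -0.52 (Pf4) and -0.12 (Gp9), and F13a1 is farthest from 0 at -1.11.

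The SD in FPKM was larger within WT than within DUSP6 KO for every gene, and the highest and the lowest WT spleen were the same animals for every gene. With each gene centred on its mean over the 10 spleens, the mean of the 9 genes on the log2 scale was -0.35, 0.10, -0.17, -0.19 and -0.24 in DUSP6 KO 26, 21, 73, 01 and 03, and -0.0049, -0.36, 0.15, 0.74 and 0.32 in WT 65, 67, 73, 77 and 83. WT 77 was the highest spleen for 9 of 9 genes, and WT 67 the lowest WT spleen for 9 of 9 and the lowest of all for 3. DUSP6 KO 21 was the highest of its group for 7 genes. Without WT 77, the median difference of the 9 genes was -0.23, that of Pf4 -0.39, of Itga2b -0.35, of Gp6 -0.29, of Ppbp -0.23, of Treml1 -0.23, of Itgb3 -0.19, of Gp1ba -0.08, of Vwf -0.05 and of Gp9 0.031, the last with the opposite sign. Without DUSP6 KO 73, that of Treml1 was -0.22 and that of Gp9 -0.25, and without WT 67 that of Gp9 was -0.28 and that of Vwf -0.27. Without WT 67, the median difference was -0.48, and without DUSP6 KO 21 it was -0.45. No gene of the 9 passed the adjusted threshold in any of these fits.

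Over the 36 pairs of the 9 genes, Pearson's r of log2(FPKM + 0.1) across the 10 spleens had a median of 0.81 and a range of 0.26 to 0.99, and Spearman's rho had a median of 0.76. With the group means removed and both groups pooled, the median r was 0.80 (0.22 to 0.98), so the covariation did not rest on the difference between the groups. No r was computed inside a single group. The mean of the 9 genes spread more in WT (SD 0.41) than in DUSP6 KO (SD 0.17), so WT weighed more in the pooled value. Leaving out, for each pair, the 2 spleens farthest from the median of the first gene gave a median r of 0.72. Ppbp and Itgb3 formed the closest pair, with r = 0.99 (permutation p = 1e-05, the smallest that 100000 resamples can give, 0.00036 after Benjamini-Hochberg adjustment over the 36 pairs) and rho = 1 (permutation p = 1e-05), and their r was 0.99 without the 2 farthest spleens. Pf4 and Ppbp had r = 0.96 (permutation p = 8e-05, adjusted p = 0.00076) and rho = 0.84 (permutation p = 0.0035, adjusted p = 0.0084), with r = 0.88 without the 2 farthest spleens. Itga2b and Itgb3 had r = 0.93 (permutation p = 0.00042, adjusted p = 0.0013) and rho = 0.88 (permutation p = 0.0017, adjusted p = 0.0077), with r = 0.90 without the 2 farthest spleens.

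Gp9 stood apart from the others. The 8 pairs with Gp9 had r between 0.26 and 0.80 (median 0.67), against a median of 0.86 (0.47 to 0.99) for the 28 pairs without it. The lowest pair was Gp9 with Treml1, with r = 0.26 (permutation p = 0.457, adjusted p = 0.457) and rho = 0.22 (permutation p = 0.535, adjusted p = 0.535), and r = 0.45 without the 2 farthest spleens. Against the mean of the other 8 genes, r was 0.98 for Itgb3 and Ppbp, 0.95 for Pf4, 0.94 for Gp6, 0.93 for Gp1ba, 0.90 for Itga2b, 0.77 for Vwf and Treml1 and 0.66 for Gp9, and for Gp9 it was 0.15 once WT 77 and WT 83, the 2 spleens farthest from the median of the other genes' mean, were left out and DUSP6 KO 73 was kept. In single pairs, leaving out the 2 farthest spleens gave r = 0.20 for Gp9 with Pf4 and 0.61 with Gp1ba. The deviation of a gene from the mean of the other 8 was largest in DUSP6 KO 73 for 4 genes. In that spleen it was 0.71 on the log2 scale for Gp9, 0.47 for Vwf, -0.38 for Itga2b and -0.53 for Treml1.

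**Figure D3:**
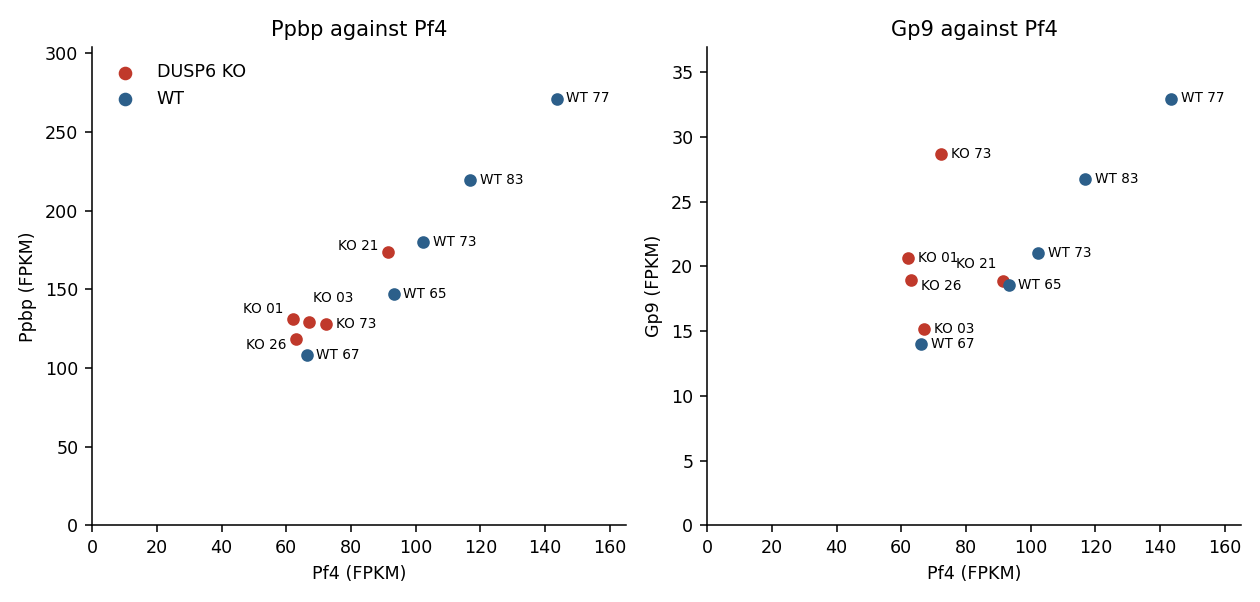
FPKM of Ppbp (left, vertical axis) and Gp9 (right, vertical axis) against FPKM of Pf4 (horizontal axes) in each of the 10 spleens, red for DUSP6 KO and blue for WT. Ppbp stays at 1.58 to 2.11 times Pf4, whereas Gp9 in DUSP6 KO 73 (28.7 FPKM) lies above spleens of like Pf4.

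DUSP6 KO 73 was also the spleen with the highest level of erythroid markers (11 measured genes, such as Alas2 and Klf1, of red cell precursors). Its mean over these markers was 1.56 above the mean of the 10 spleens on the log2 scale, against 0.96 in WT 77 and -1.52 in both DUSP6 KO 21 and WT 67. Across the 10 spleens the deviation of Gp9 from the other 8 genes went with the erythroid mean (r = 0.74, rho = 0.84, r = 0.72 without the 2 farthest spleens, 0.76 with the group means removed), and that of Treml1 went the other way (r = -0.68, rho = -0.78, r = -0.87 without the 2 farthest spleens). So did that of Itga2b (r = -0.63, rho = -0.62). The permutation p, Benjamini-Hochberg adjusted over the 9 genes, was 0.116 (Gp9), 0.127 (Treml1) and 0.147 (Itga2b) for r. For rho it was 0.034, 0.051 and 0.182. These relations were picked out after the values were seen, and are given as descriptions of 10 spleens. The mean of the 9 genes itself had r = 0.19 with the erythroid mean. The part of erythroid cells in the Gp9 level was not tested.

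The 4 further lists of platelet and megakaryocyte genes, also drawn up with earlier results of these data known, held 57 genes. Of these, 56 passed the filter, and 0 passed the adjusted threshold. Of the 56, 39 were lower and 17 higher in DUSP6 KO, and the median log2 difference was -0.12. At an unadjusted p under 0.05 there were 6 lower genes of 56, where 3.03% of all 21296 genes tested were called in that direction, and 1 higher gene of 56, where 2.62% were. Scaling to the recovered reads, an alternative chosen after seeing the data, gave 3 lower genes, and leaving out single spleens gave 1 (without WT 83) to 11 (without WT 67 or without DUSP6 KO 21), so this count depends on single animals.

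Of 17 surface receptors tested, 12 were lower and 5 higher in DUSP6 KO (median log2 difference -0.22). F2rl2, the cofactor of thrombin signalling in mouse platelets, was at 4.71 ± 1.11 FPKM for DUSP6 KO and 7.60 ± 2.81 FPKM for WT (SD, n = 5 per group), a log2 difference of -0.64 (SE 0.25, limma adjusted p = 0.791). P2rx1, an ATP-gated channel, was at 4.70 ± 1.23 and 6.31 ± 1.32 FPKM (SD, n = 5 per group), and differed by -0.43. Gp5, which encodes the glycoprotein V subunit of the complex that holds Gp1ba and Gp9, was at 8.399 ± 1.58 and 11.5 ± 3.42 FPKM (SD, n = 5 per group), and differed by -0.42.

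Of 13 genes for granule contents and secretion, 11 were lower and 2 higher, with a median log2 difference of -0.16. F13a1 encodes the A subunit of coagulation factor XIII, which crosslinks fibrin and is made by monocytes and macrophages as well as by megakaryocytes. It was at 2.36, 3.15, 4.20, 2.20 and 2.54 FPKM in DUSP6 KO 26, 21, 73, 01 and 03, and at 4.95, 4.32, 6.65, 10.8 and 5.85 FPKM in WT 65, 67, 73, 77 and 83. All 5 WT spleens were above all 5 DUSP6 KO spleens, by a narrow margin between DUSP6 KO 73 and WT 67. Such a separation, with DUSP6 KO lower, was found for 0.563% of all genes tested. The log2 difference was -1.11 (SE 0.25), and its limma adjusted p of 0.343 did not pass. Of the 7 macrophage markers measured, 3 were lower and 4 higher in DUSP6 KO, with log2 differences from -0.50 (Cd5l) to 0.38 (Adgre1). Their summed level was 425 to 648 FPKM in the DUSP6 KO spleens and 473 to 522 FPKM in the WT spleens. Csf1r and Adgre1 were each higher in all 5 DUSP6 KO spleens than in any WT spleen, and neither passed the adjusted threshold. Groups that do not overlap, in either direction, were found for 1.11% of all genes tested. No list was drawn up for monocytes. The part of monocytes and macrophages in the F13a1 level was not tested. Slc35d3, a transporter needed for dense granules, and F5, coagulation factor V, had log2 differences of -0.57 and -0.41.

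Of 15 genes for cytoskeleton, enzymes and signalling, 12 were lower and 3 higher, with a median of -0.13. Rgs18, a regulator of G protein signalling in platelets, was at 9.39 ± 1.58 and 12.7 ± 2.80 FPKM in DUSP6 KO and WT (SD, n = 5 per group), Rasgrp2, the activator of the integrin switch Rap, at 14.4 ± 2.85 and 17.5 ± 2.43 FPKM, and Plek, the protein kinase C substrate pleckstrin, at 53.9 ± 10.6 and 64.9 ± 5.50 FPKM. Their log2 differences were -0.41, -0.30 and -0.28, and none passed the adjusted threshold. Across the 10 spleens, r with the mean of the 9 genes was 0.75 for Rgs18, -0.0023 for Rasgrp2 and 0.53 for Plek. The median r over the 15 genes was 0.30. Which cells of the spleen gave these levels was not tested.

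Of 11 transcription factors of megakaryocytes, 4 were lower and 7 higher, and the median log2 difference was 0.13. The 3 with the largest absolute difference were Gfi1b (means of 30.2 ± 19.6 FPKM for DUSP6 KO and 24.7 ± 13.3 FPKM for WT, log2 difference 0.22), Zfpm1 (92.0 ± 54.6 and 73.9 ± 33.9 FPKM, 0.22) and Tal1 (51.4 ± 38.3 and 41.8 ± 26.3 FPKM, 0.21), all SD with n = 5 and all with a limma adjusted p of 0.993. Each of these 3 differences was below 0 without DUSP6 KO 73 and without WT 67. These factors also act in red cell precursors. Across the 10 spleens Gata1, Nfe2, Gfi1b, Zfpm1 and Tal1 had r of 0.99 with the erythroid mean and of 0.13 to 0.26 with the mean of the 9 genes.

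**Figure D4:**
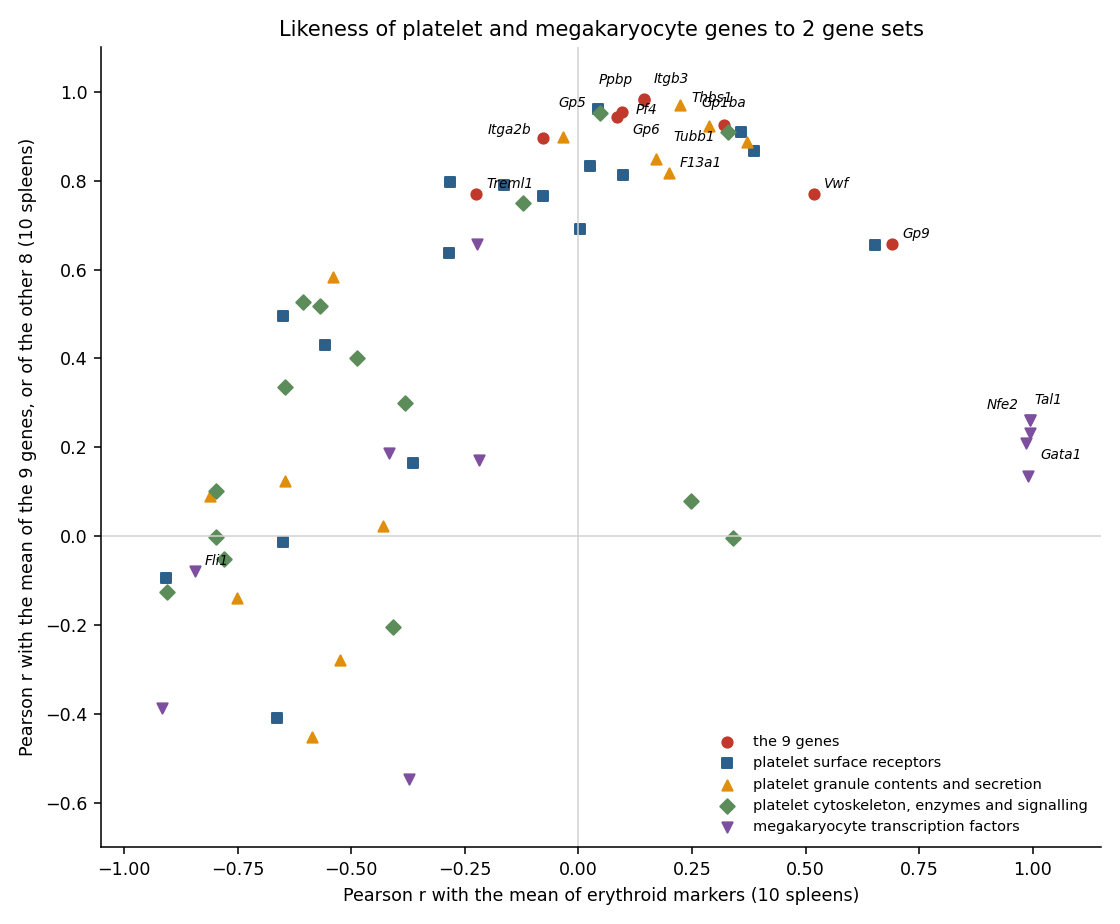
Pearson r over the 10 spleens with the mean of the erythroid markers (horizontal axis) and with the mean of the 9 genes, or of the other 8 for a gene among the 9 (vertical axis), one point per gene of 5 lists. The 9 genes (red circles) lie at 0.66 to 0.98 on the vertical axis, with Gp9 farthest to the right, and 5 transcription factors lie near 1 on the horizontal axis.

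The means of the other lists related to the mean of the 9 genes to very different degrees, given here as descriptions over the same 10 libraries. It was r = 0.94 for surface receptors, 0.90 for granule genes, 0.63 for cytoskeleton, enzymes and signalling and 0.27 for transcription factors. For cells other than megakaryocytes it was -0.42 for endothelial markers, -0.04 for macrophage markers and -0.31 for spleen lymphocyte markers. It was 0.81 for progenitor markers, which share genes such as Gata2 and Meis1 with the platelet and megakaryocyte lists, and 0.83 for the 5 neutrophil progenitor markers, Elane, Mpo, Prtn3, Ctsg and Ms4a3, a value that was 0.50 without the 2 farthest spleens. Those 5 markers were lower in DUSP6 KO for 5 of 5, where 51% of all genes tested were, with a median log2 difference of -1.06. Of the 5, 0 passed the adjusted threshold. Their summed level was 46.4 to 119 FPKM in the DUSP6 KO spleens and 49.2 to 423 FPKM in the WT spleens, with the highest value in WT 77. What these markers share with the 9 genes in WT 77 was not tested.

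**Figure D5:**
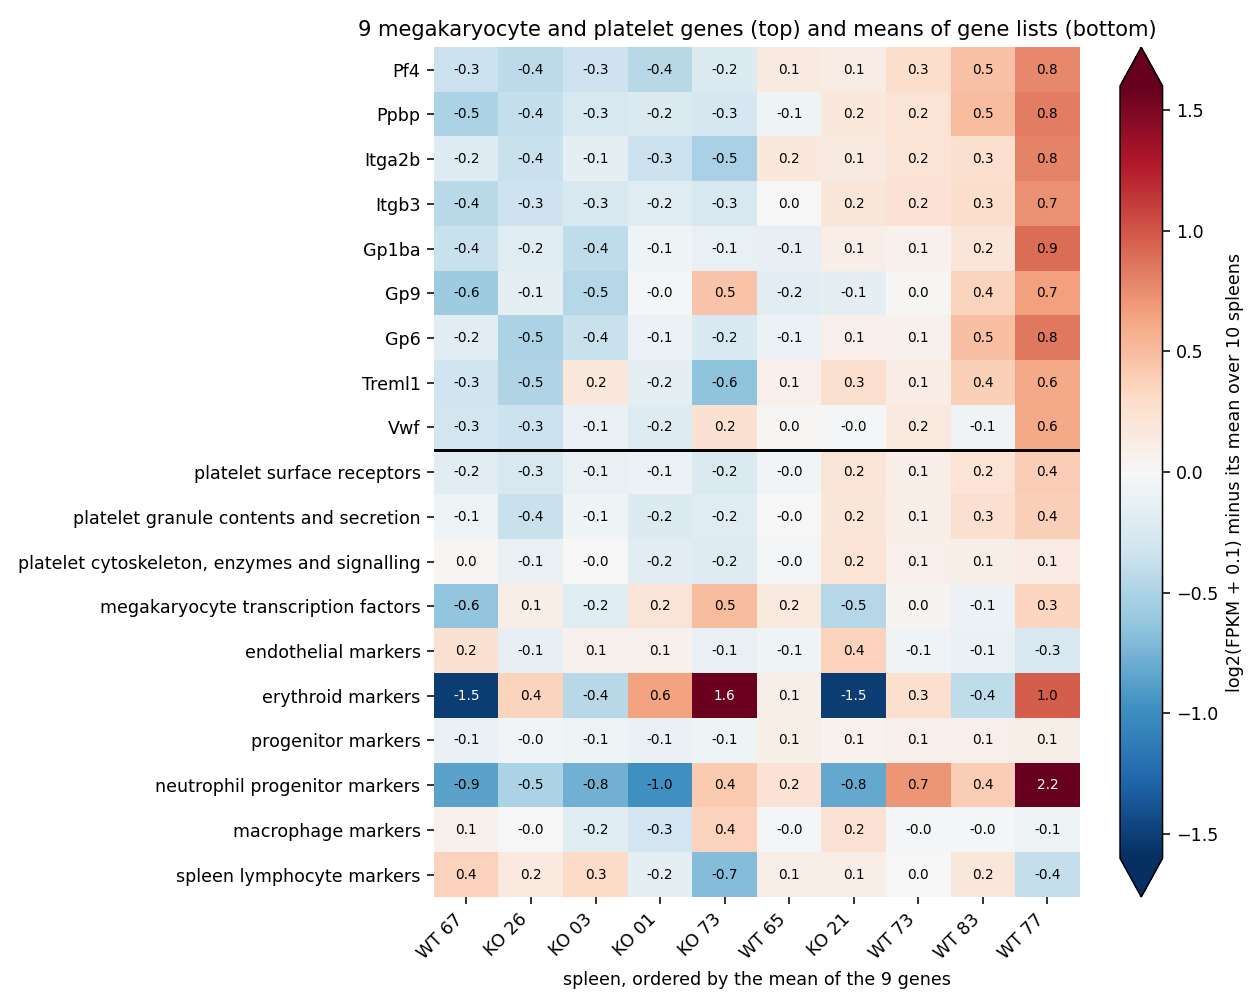
Log2(FPKM + 0.1) of each of the 9 genes (upper rows) and the mean of 10 gene lists (lower rows), each centred on its mean over the 10 spleens, with spleens (columns) ordered by the mean of the 9 genes and colours ending at ±1.6. WT 77 holds the highest value of each of the 9 genes and of the receptor and granule lists, Gp9 departs from the other genes in DUSP6 KO 73, and the erythroid row has its highest value in that spleen.

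Of 13413 other genes averaging 1 FPKM or more, 14 (0.104%) had r of at least 0.9 with the mean of the 9 genes, and the median r was 0.01. The 10 with the highest r were Thbs1 (0.97), Gp5 (0.96), Gnaz (0.96), Alox12 (0.95), Gm10736 (0.95), Gm10076 (0.93), Appbp2 (0.92), F5 (0.92), Mob1b (0.92) and Slc6a4 (0.91), each over 10 spleens. They were selected for this value, so no test is given, and 4 of the 10 (Thbs1, Gp5, Alox12 and F5) were in the platelet lists. Without the 2 spleens farthest from the median, r was 0.93 for Thbs1, 0.92 for Alox12, 0.88 for Gp5 and 0.75 for Gm10076. Thbs1, the alpha granule protein thrombospondin, was at 11.7 ± 2.31 FPKM for DUSP6 KO and 15.5 ± 4.97 FPKM for WT (SD, n = 5 per group), a log2 difference of -0.37 (limma adjusted p = 0.944). Gm10736, a processed pseudogene, is uncertain because reads of such genes can belong to a near-identical parent gene.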

How the data were processed

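RNA of 10 spleens was sequenced by a service provider. Paired-end reads were aligned by Hisat2 and counted by featureCounts 1.5.0-p3, and the authors deposited FPKM values for 54532 genes. The processing notes name a human genome build, whereas the gene identifiers are mouse, and 53585 genes (98.3%) have the coordinates of GENCODE M21 (GRCm38), which is used here. Whether counting used the strand is not stated, and no other gene lies on exons of the 9 genes. FPKM times gene length was a whole multiple of 1 step per library (100% of values, tolerance 0.001 of a read), which gave the reads. The library total behind the FPKM differed from the sum of the recovered reads by a factor of 0.949 to 1.12.

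Genes averaging 0.1 FPKM or more were compared on the log2(FPKM + 0.1) scale with limma 3.58.1 (R 4.3.3, eBayes with trend, Benjamini-Hochberg adjustment over all of them), a procedure tested on simulated data. Fold changes on this scale understate those of low genes. The 9 genes and the lists were chosen with earlier results of these data known. The genes named are the 9, the 3 of each further platelet list with the largest absolute log2 difference, and the 10 genes most like the mean of the 9. Single values were compared by two-sided exact permutation tests, and correlations by 100000 permutations. The authors' own DESeq2 test was not repeated. The log2 differences, and the counts over the 9 genes, the platelet lists and all genes, were recomputed without each library in turn and with another pseudocount (1 or 0.01), filter (none, or a mean of 1 FPKM), variance model (no trend, robust trend, array weights, or voom on the recovered reads) or scaling (quantiles, medians, recovered reads, or totals that leave out haemoglobin, mitochondrial and antigen receptor genes). The covariation of the 9 genes was recomputed for the leave-outs, the pseudocounts and 2 scalings, and ratios, list means and like genes for none of these. Promoters are from RefSeq. Python 3.11.15 with numpy 2.4.6, pandas 2.3.3, scipy 1.17.1 and matplotlib 3.10.9 was used for the rest, and tables were handled in R with the data.table package (1.17.8).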

Additional observations from a re-analysis of the deposited data

Results flagged for a closer look

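In 8 of 80 groups of 5 values examined, 1 spleen lay farther from the others than Dixon's 95% limit for 5 samples (0.71 of the range), which chance gives in about 1 group in 20. DUSP6 KO 21 stood high for Ppbp (174 FPKM, the next DUSP6 KO spleen at 131), for Itgb3 (19.8 FPKM, the next at 15.1), for Plek (72.2 FPKM, the next at 52.5) and for Alox12 (11.8 FPKM, the next at 8.34). WT 77 stood high for Gm10736 (72.5 FPKM, the next WT spleen at 27.2) and for Slc6a4 (5.03 FPKM, the next at 2.82). Gm10736, Slc6a4 and Alox12 were among the genes selected for their likeness to the mean of the 9 genes. That mean was highest in WT 77 and, within DUSP6 KO, in 21, so high values there are in part a result of the selection. The summed level of the 5 neutrophil progenitor markers was far from the rest in DUSP6 KO 73 (119 FPKM, the next at 66.1) and in WT 77 (423 FPKM, the next at 149). Of the 9 genes, only Ppbp and Itgb3 passed the limit, both in DUSP6 KO 21, and none did in WT 77. The cause was not tested.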

How the results depend on the processing

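No paired analysis was possible because the groups share only 1 animal number (73), and nothing in the labels pairs the animals. Over 22 alternatives, 10 of which leave out 1 library each, 197 of 198 log2 differences of the 9 genes kept their sign and their side of the adjusted threshold, and the remaining 1 was that of Gp9, whose difference ranged from -0.28 (without WT 67) to 0.031 (without WT 77) as single libraries were left out. None of the 9 passed the adjusted threshold under any alternative (lowest adjusted p 0.325), nor did any of the 56 other platelet genes. For 13 other genes named with a difference, recomputed by a choice made after seeing the data, 280 of 286 values kept their sign and side, with a lowest adjusted p of 0.0947 (F13a1 with array weights). The other 6 were those of Gfi1b, Zfpm1 and Tal1, which were -0.093, -0.068 and -0.16 without DUSP6 KO 73 and -0.11, -0.050 and -0.19 without WT 67, with ranges over single libraries of -0.11 to 0.55, -0.068 to 0.57 and -0.19 to 0.61. The count of the 9 at an unadjusted p under 0.05, 2 in the comparison above, was 5 with array weights and 2 to 6 when single libraries were left out (6 without WT 67). The count of other platelet genes lower at that threshold, 6 above, was 2 without trend, 3 with quantile normalization, 10 with array weights, 3 with scaling to the recovered reads (chosen after seeing the data) and 1 to 11 when single libraries were left out. The count of higher genes, 1 above, was 0 with array weights and 0 to 1 when single libraries were left out. The count over all genes, 15, was 10 to 34 (34 without DUSP6 KO 21). Leaving out single libraries gave a median difference of the 9 of -0.48 to -0.23 and a median r over pairs of 0.70 to 0.89. The cause of these changes was not tested. At 5 mice a group, a log2 difference of the size seen for Pf4 did not pass over 21296 genes.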

Other observations

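Gp1bb, the subunit of the glycoprotein Ib-IX-V complex that pairs with Gp1ba, was the only gene of the 57 in the further platelet lists to fall under the filter. It had 0 reads in 8 of 10 spleens and at most 3 reads in the others, while Gp1ba had 167 to 420 and Gp9 222 to 483. On GRCm38 its annotated span, chr16:18620317-18622403 on the minus strand, shares 1902 bases with a neighbouring gene on the same strand, whose symbol in the deposited table has turned into the spreadsheet date 5-Sep (Sept5 in the reference) and which had 10 to 69 reads, with the most in WT 77. It also shares 1938 bases with AC133488.1, which had 0 to 7 reads. Whether reads of Gp1bb were set aside because of these overlaps was not tested, so its level is uncertain.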
